A study of Mus musculus with 9 samples.

Results

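The genes described here are 10 splicing targets of the Esrps, namely Fgfr1, Fgfr2, Fgfr3, Cd44, Ctnnd1, Enah, Arhgef11, Slk, Exoc7 and Magi1, and the measurement is the total level of each gene. They were chosen by name, as the rows of the deposited gene table that carry these symbols, and each symbol has 1 row among the 38203 genes in the table. All 10 averaged above 0.1 FPKM in at least 1 genotype and so were among the 16897 genes tested. FPKM divides the fragments sequenced from a gene by the length of its exons and by the size of the library, so levels can be set side by side between genes. The table gives a single value per gene and library, which sums over all splice forms, so nothing below is a measure of splicing.

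RNA came from trunk epidermis of mouse embryos at E18.5, separated from the dermis after trypsin digestion, and 9 libraries were made from 4 genotypes. WT had 2 libraries. KO (Esrp1-/-, Esrp2+/+) had 3, KH (Esrp1-/-, Esrp2+/-) had 2, and DKO (Esrp1-/-, Esrp2-/-) had 2. The Esrp1 null allele is a germline deletion of coding exons made with Zp3-Cre, which acts in the oocyte, and in the Esrp2 null allele a cassette with LacZ and a neomycin marker takes the place of the gene; the lines are on a mixed C57BL/6 and 129 background. The extraction notes describe the controls as Esrp2-/-, against the sample labels, but Esrp2 stood at 118 and 136 FPKM in the WT libraries, and they are called WT here.

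Esrp1 and Esrp2 are RNA-binding proteins of epithelial cells. They bind near alternative exons of pre-mRNAs and shift which exons are kept, so the usual sign of their loss is a change of isoform and not of the amount of mRNA. Fibroblast growth factor receptors are the textbook case: the third immunoglobulin-like domain is completed either by exon IIIb, the epithelial form, or by exon IIIc, the mesenchymal form, and the choice sets which FGF ligands the receptor can bind. The question put to the data was whether the total level of such targets moved when the splicing factors were removed.

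The exons at issue are printed to show what a gene-level value adds together. All positions are on GRCm38, the build the study used (mm10), from GENCODE M21 transcripts, and each sequence is given 5′ to 3′ on the transcribed strand. For the receptors the pair of Fgfr3 is shown. The annotation of this gene holds 1 pair of mutually exclusive exons, of which the first in transcript order is IIIb and the second IIIc. The study told the 2 forms apart by cutting RT-PCR products with an enzyme chosen for each, and the capitals mark the recognition site of that enzyme.
Fgfr3 IIIb, chr5:33731281-33731431, plus strand, StuI: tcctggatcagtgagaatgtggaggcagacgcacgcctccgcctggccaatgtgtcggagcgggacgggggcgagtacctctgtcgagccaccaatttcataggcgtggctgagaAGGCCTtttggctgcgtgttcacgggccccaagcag
Fgfr3 IIIc, chr5:33732117-33732261, plus strand, PstI: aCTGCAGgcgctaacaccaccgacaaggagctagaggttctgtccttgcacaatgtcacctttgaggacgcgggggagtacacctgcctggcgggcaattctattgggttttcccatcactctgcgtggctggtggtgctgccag

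The IIIb exon of Fgfr3 is 151 nt long and the IIIc exon 145 nt, and both are coding exons. Each carries the site of its own enzyme once, and the partner exon carries none of it. Since the paired exons are almost equally long, either form adds nearly the same exon length to the gene. The palindromic sites read the same on both strands. Among 6933 annotated coding exons of 145 to 151 nt, 6.22% hold the StuI site AGGCCT and 15.3% the PstI site CTGCAG. How the authors' counting split fragments that match more than 1 receptor was not tested.

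Cassette exons, which are either kept or skipped whole, are printed for 3 further members. For Enah and Arhgef11 the exon is the one between the study's RT-PCR primers, and for Slk it is the only exon that the annotation both includes and skips. The choice for Slk thus rests on the annotation alone, and whether the Esrps act on that exon was not tested.
Enah cassette, chr1:181911597-181911659, minus strand: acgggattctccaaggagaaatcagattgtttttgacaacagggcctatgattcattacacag
Arhgef11 cassette, chr3:87734424-87734552, plus strand: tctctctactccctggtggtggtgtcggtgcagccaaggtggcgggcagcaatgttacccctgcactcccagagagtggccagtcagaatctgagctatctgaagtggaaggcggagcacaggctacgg
Slk cassette, chr19:47627648-47627740, plus strand: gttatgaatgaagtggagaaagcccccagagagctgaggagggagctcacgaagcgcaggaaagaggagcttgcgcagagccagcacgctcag

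These exons are 63, 129 and 93 nt long. In Cd44 the primers span 10 variable exons of 1245 nt in all, between positions 102831330 and 102848782 of chromosome 2, so the expected product runs from 392 nt without them to 1637 nt with all of them. Cd44 is therefore the member among those with primers whose splice forms differ most in length, and FPKM was scaled for each gene by a length the authors' software estimated. How far a change of isoform entered that estimate was not tested.

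Depth cannot be read from FPKM, which carries no counts, so no counting interval is given. The FPKM values of a library summed to between 713318 and 1130713, and the 3 lowest sums belonged to KH replicate 1, KO replicate 1 and DKO replicate 2. Esrp1 averaged 31.0% of WT in DKO, 21.9% in KO and 28.1% in KH, in a gene-level value that also holds the exons outside the deletion, and it was not called against WT in any of them (limma adjusted p of 0.142, 0.375 and 0.693), so a loss of this size could miss the threshold. Esrp2 was at 0.0843 and 0.0463 FPKM in the DKO libraries, and DKO stood at -6.91 ± 0.37 (SE) against WT on the log2(FPKM + 1) scale with a limma adjusted p of 7.06e-05. The labelled tissue was checked by markers: 6 of 6 basal keratinocyte genes and 6 of 6 suprabasal genes exceeded 1 FPKM, with sums of 4097 to 8463 and 25960 to 74120 FPKM, whereas the 4 endothelial and 4 skeletal muscle genes summed to at most 0.355 and 0.815 FPKM in any library. Of 7 dermal fibroblast genes 4 exceeded 1 FPKM somewhere, with sums from 44.2 to 150 FPKM that were almost wholly Dcn. Melanocyte genes summed to 41.4 and 45.6 FPKM in WT and to between 54.1 and 196 FPKM in the 7 libraries without Esrp1, which all lay above WT. Mesenchymal identity genes summed to between 43.1 and 57.95 FPKM in WT and to between 57.9 and 94.7 in the other libraries. Among them Vim lay above both WT libraries in all 7 libraries without Esrp1, as did 5.07% of all genes tested. The sum ran from 15.4 to 1520 FPKM for red blood cell genes and from 2.66 to 19.5 FPKM for immune genes. Their part in the levels of the members was not tested.

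None of the 10 genes passed the test between any pair of genotypes. A gene was called at a Benjamini-Hochberg adjusted p below 0.05 over all genes tested, and average FPKM more than 2-fold apart, from limma on log2(FPKM + 1) of all 9 libraries. Differences given on the log2 scale are of log2(FPKM + 1) throughout. Between DKO and WT, 0 of 10 members were called, beside 0.728% of all genes tested (123 genes, 81 higher and 42 lower; 96 higher and 82 lower after rescaling to TPM). Between KO and WT 0 of 10 were called, beside 0.0296% of all genes, and between KH and WT 0 of 10, again beside 0.0296%. Among the knockout genotypes 0 of 10 were called between DKO and KO (0.639% of all genes), between DKO and KH (0.426%) and between KH and KO (0%). The lowest adjusted p of any member in these 6 comparisons was 0.306. At an unadjusted p below 0.05 the counts were 3 for DKO against WT (13.8% of all genes), 1 for KO against WT (4.53%), 1 for DKO against KO (6.8%) and 0 for the other 3 comparisons (3.72% for KH against WT, 5.71% for DKO against KH and 1.09% for KH against KO). With so few libraries these tests could miss sizeable differences, which the intervals below give.

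Genotype means of the members lay within a 2-fold span in every comparison. Against WT the largest ratio either way was 1.94 in DKO, 1.49 in KO and 1.81 in KH, and 7, 10 and 8 of the 10 genes lay under 1.5-fold. In DKO, 3 of 10 members differed from WT by 1.5-fold or more in average FPKM, beside 36.8% of all genes tested. In KO it was 0 of 10 beside 23.4%, and in KH 2 of 10 beside 24.5%. The median log2 difference of the members between DKO and WT was -0.28, with 4 higher and 6 lower, beside a median of 0.02 over all genes. It was -0.26 between KO and WT and -0.12 between KH and WT, beside a median of 0 over all genes in each. These comparisons share the WT libraries. The split between KH and WT was 3 higher and 7 lower, and became 5 and 5 after rescaling to TPM or median ratio scaling.

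**Figure D1:**
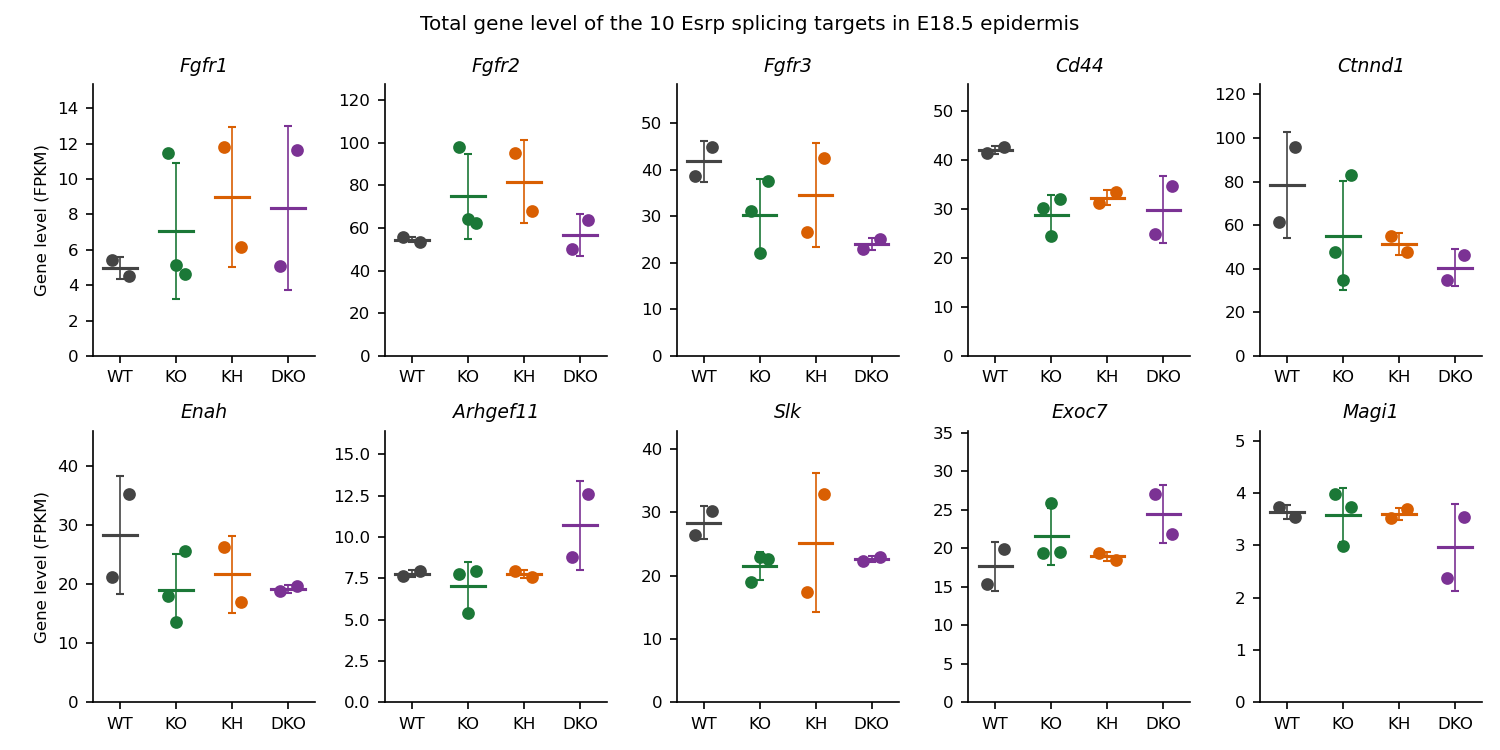
FPKM of the 10 genes in the 9 libraries, 1 panel a gene with its own axis from 0. Points are libraries, horizontal bars are genotype means and thin bars are SD (n = 2 for WT, KH and DKO, and 3 for KO). Cd44 was higher in both WT libraries than in all 7 others, while Fgfr1 was high in 1 library of each knockout genotype.

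Levels differed far more between the genes than between genotypes. Averaged over the 9 libraries, Fgfr2 stood highest at 67.9 FPKM, followed by Ctnnd1 at 56.3, Cd44 at 32.8, Fgfr3 at 32.4, Slk at 24.1, Enah at 21.7, Exoc7 at 20.8, Arhgef11 at 8.19, Fgfr1 at 7.32 and Magi1 at 3.46 FPKM. Of the 9 neighbouring pairs in this order, 7 overlapped in their library ranges, and only Exoc7 over Arhgef11 and Fgfr1 over Magi1 did not. Ctnnd1 over Cd44 overlapped in range but kept its order in 9 of 9 libraries, whereas Cd44 exceeded Fgfr3 in 5 and Enah exceeded Exoc7 in 4.

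Of the receptors, Fgfr2, which in epithelia receives FGF7 and FGF10 from the mesenchyme through its IIIb form, was the most abundant. It stood at 55.6 and 53.6 FPKM in the WT pair, 97.9, 64.2 and 62.3 across the KO libraries, 95.4 and 68.1 with KH and 50.0 and 63.9 with DKO. All KO and KH libraries lay above both WT libraries, and the DKO libraries lay on either side of them. Relative to WT the difference was 0.55 ± 0.28 (SE, log2 scale, adjusted p = 0.98) in KH, 0.42 ± 0.25 (adjusted p = 0.853) in KO and 0.05 ± 0.28 (adjusted p = 0.955) in DKO, all from limma. Without KO replicate 1 the KO difference was 0.21, and without KH replicate 1 the KH difference was 0.31. For DKO the 95% interval of the difference ran from -0.59 to 0.68, which holds neither a doubling nor a loss to 50% of WT.

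Fgfr3, a receptor expressed in suprabasal keratinocytes, was the member with the lowest adjusted p. It measured 38.8 and 44.9 FPKM among WT libraries, 31.1, 22.1 and 37.6 among KO, 26.7 and 42.5 among KH and 23.1 and 25.0 among DKO. The KO and DKO libraries all lay below WT, and KH overlapped it. DKO averaged 57.5% of WT, a log2 difference of -0.77 ± 0.29 (SE) with a 95% interval from -1.44 to -0.10, an unadjusted p of 0.0289 and a limma adjusted p of 0.306, so it was not called. KO averaged 72.3% of WT and KH 82.7%, with adjusted p of 0.853 and 0.98. The suprabasal marker genes summed to 54820 and 67500 FPKM in WT, to between 25960 and 74120 in KO, to 31110 and 48510 in KH and to 46530 and 30250 in DKO. DKO lay below WT in this sum too, which was mostly Krt1 and Krt10, and its part in the level of Fgfr3 was not tested. The genes of the sum did not all follow it. In DKO, Krt1 averaged 68.9% of WT, Krt10 49.95% and Dsg1a 35.3%, but Lor 83.9%, Flg 96.9% and Ivl 96.6%. Lor, Flg and Ivl were each higher in DKO replicate 1 than in both WT libraries. In bulk RNA, fewer cells of a type and less RNA per cell cannot be told apart.

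Fgfr1, which in skin is best known from dermal and follicle cells, was the least abundant of the 3 receptors and the most uneven among libraries of the same genotype. It stood at 5.42 and 4.55 FPKM for WT, 11.5, 5.12 and 4.61 for KO, 11.8 and 6.18 for KH and 5.08 and 11.6 for DKO. In each knockout genotype 1 library lay above 11 FPKM, and all other libraries lay between 4.55 and 6.18. The SD among libraries of the same genotype was 0.59 on the log2 scale, the largest of the 10 members, and DKO averaged 168% of WT with a difference of 0.55 ± 0.48 (SE, limma adjusted p = 0.622). Without DKO replicate 2 that difference was 0.03, and without KO replicate 1 the KO difference went from 0.34 to -0.03.

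The 3 libraries with high Fgfr1 were also those with the lowest summed FPKM, and other genes moved with them. Shh, the ligand made by the hair placode, was at 10.3 FPKM in KO replicate 1, 11.2 in KH replicate 1 and 9.35 in DKO replicate 2, and between 3.43 and 5.25 in the other 6. Lhx2, a follicle transcription factor, was at 12.5, 18.0 and 16.1 FPKM in these 3 and between 3.43 and 6.26 in the rest, and Edar, the ectodysplasin receptor of the placode, at 17.4, 15.6 and 13.8 against 6.20 to 7.77. These 3 follicle genes and Fgfr1 each separated the same 3 libraries from the other 6. All 5 hair follicle marker genes exceeded 1 FPKM, and their sum, mostly Krt17, ran from 396 to 471 FPKM in WT, 371 to 683 in KO, 362 to 628 in KH and 559 to 645 in DKO. Krt17 set the same 3 libraries apart too, at 578 FPKM or more against at most 540, but Sox9 did not, with 3.73 FPKM in KO replicate 1 and 4.03 in DKO replicate 1.

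Keratinocyte genes moved with these libraries as well. Basal keratinocyte genes summed to 8463, 7509 and 7333 FPKM in KO replicate 1, KH replicate 1 and DKO replicate 2 and to at most 6563 in the others, and 4 of the 6 genes (Krt5, Krt14, Itgb4 and Col17a1) were each higher in all 3 than in any other library. The suprabasal sum was lowest in the same 3, at 25960, 31110 and 30250 FPKM against at least 46530, and 5 of its 6 genes were each lower in all 3. Dermal fibroblast genes summed to 150 FPKM in KO replicate 1 and 139 in KH replicate 1 but to 75.3 in DKO replicate 2, within the range of 44.2 to 89.9 in the other libraries. This sum was mostly Dcn. The collagen gene Col1a1 was at 2.65 FPKM in KO replicate 1 and 0.283 in KH replicate 1, and Col3a1 at 5.39 and 0.966. The part of follicle, basal and suprabasal cells in the level of Fgfr1 was not tested, and no test was run between these libraries and the others, since they were noticed by their values.

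**Figure D2:**
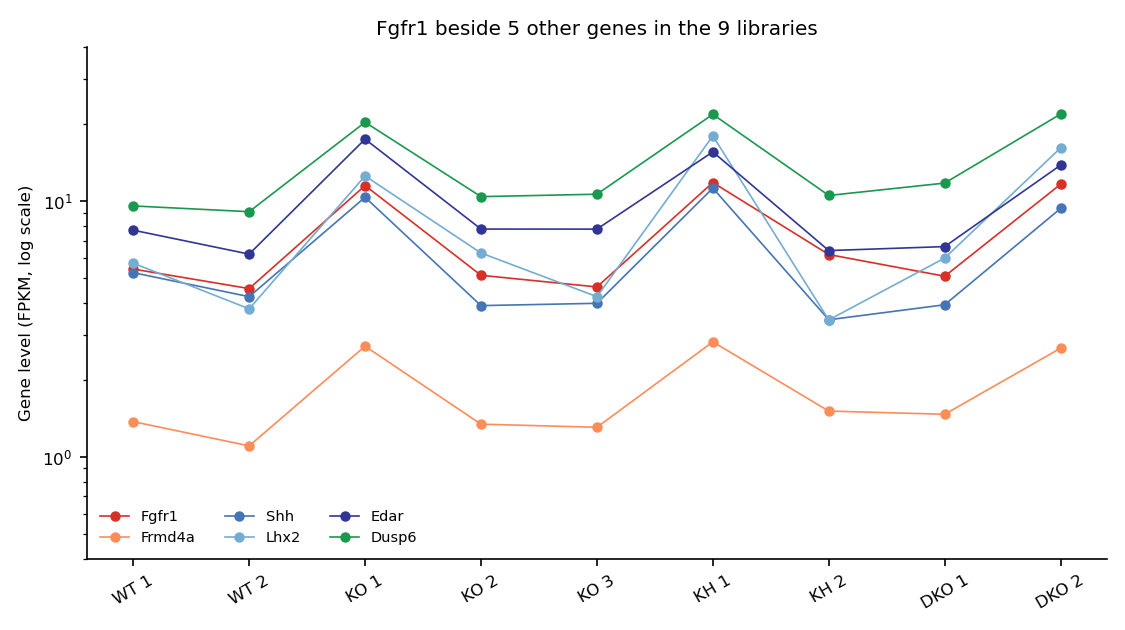
FPKM on a log axis of Fgfr1, of Frmd4a (the gene most like it), of the follicle genes Shh, Lhx2 and Edar, and of Dusp6 in the 9 libraries; lines only join the points of a gene. KO 1, KH 1 and DKO 2 stand above the other 6 libraries for all 6 genes.

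The split of the receptors was followed as the share of each in their summed FPKM, which no scaling between libraries can alter. Fgfr2 made up 55.7% and 52.0% of the sum in the WT pair, 69.7%, 70.2% and 59.6% across the KO libraries, 71.3% and 58.3% with KH and 63.9% and 63.5% with DKO. Fgfr3 made up 38.9% and 43.6% among WT libraries, 22.1%, 24.2% and 35.9% among KO, 19.9% and 36.4% among KH and 29.5% and 24.9% among DKO. Both WT libraries thus had a lower share of Fgfr2 and a higher share of Fgfr3 than any of the 7 libraries without Esrp1. The mean share of Fgfr3 was 41.2% ± 3.32 (SD, n = 2) for WT, 27.4% ± 7.46 (SD, n = 3) for KO, 28.2% ± 11.7 (SD, n = 2) for KH and 27.2% ± 3.28 (SD, n = 2) for DKO. Fgfr1 took 4.41% to 11.6% of the sum in any library. No test was run on the shares, and no rate of such separation over other gene trios was computed. The suprabasal marker sum moved with them in part, and its part in the shares was not tested. It was lowest in KH replicate 1, KO replicate 1 and DKO replicate 2, where Fgfr3 made up 19.9%, 22.1% and 24.9%. But KO replicate 2 had a share of 24.2% at a sum of 47670 FPKM. KO replicate 3 had the highest sum of all, 74120 FPKM, and a share of 35.9%, below both WT libraries. In the other 4 libraries without Esrp1 the share of Fgfr3 was 24.2% to 36.4%, and in 3 of these 4 the suprabasal sum was also below both WT libraries. The summed level of the 3 receptors was 99.8 and 103 FPKM for WT, 140.5, 91.4 and 104.5 for KO, 134 and 117 for KH and 78.1 and 100.5 for DKO. Both KH libraries and all KO libraries but replicate 2 lay above WT, and both DKO libraries lay below the higher WT value.

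**Figure D3:**
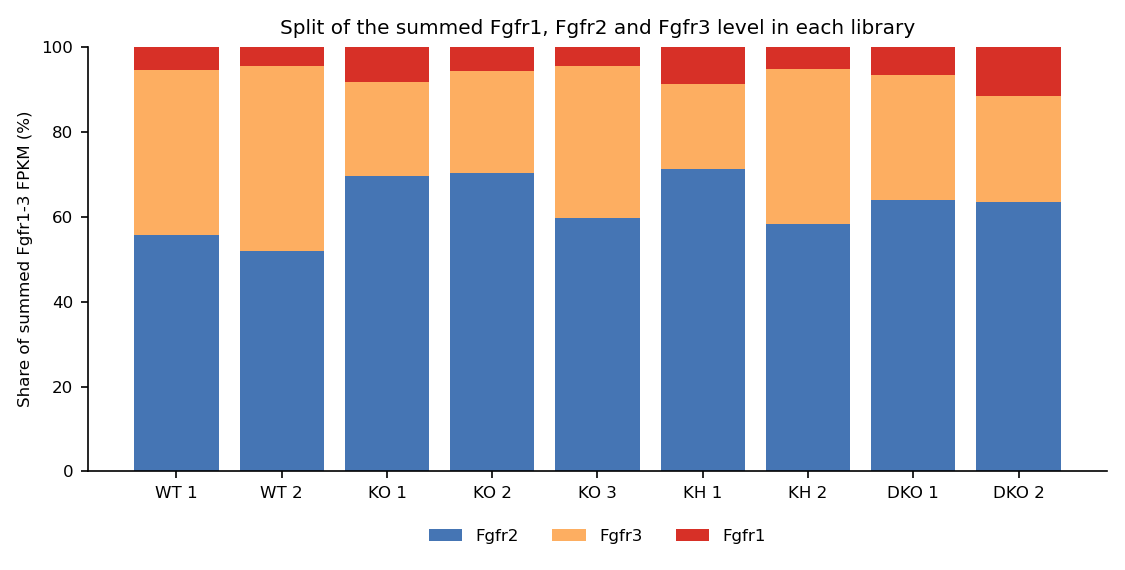
Share in percent of Fgfr2 (blue), Fgfr3 (orange) and Fgfr1 (red) in their summed FPKM, 1 bar a library. The Fgfr2 share lies between 52.0% and 55.7% in WT and between 58.3% and 71.3% in the 7 libraries without Esrp1. The Fgfr3 share is 19.9%, 22.1% and 24.9% in KH 1, KO 1 and DKO 2, which have the lowest suprabasal marker sums, and 24.2% in KO 2, which is not among them.

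Cd44, the cell surface receptor for hyaluronan, was the single member lower in all 7 libraries without Esrp1 than in both WT libraries. It measured 41.5 and 42.6 FPKM for WT, 30.2, 24.4 and 32.0 for KO, 31.3 and 33.4 for KH and 25.0 and 34.7 for DKO. No library without Esrp1 reached the lower WT value; 1 of 10 members showed this pattern in this direction and 0 the reverse, beside 5.08% and 5.07% of all genes tested. The mean was 68.6% of WT in KO, 76.9% in KH and 70.9% in DKO. The log2 differences from WT were -0.54 ± 0.20 (SE) in KO with an unadjusted p of 0.0257 and an adjusted p of 0.853, and -0.50 ± 0.22 in DKO with an unadjusted p of 0.0491 and an adjusted p of 0.362, both from limma; neither was called. Without DKO replicate 1 the DKO difference was -0.27, and without DKO replicate 2 it was -0.73. Between DKO and KO the difference was 0.04 ± 0.20, with a 95% interval from -0.42 to 0.49.

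Ctnnd1, which encodes p120-catenin, the armadillo protein that holds cadherins at the membrane, had the largest fold difference between DKO and WT. It measured 61.2 and 95.8 FPKM in the WT pair, 47.7, 34.6 and 82.9 across the KO libraries, 55.1 and 47.9 with KH and 34.6 and 46.4 with DKO. The KH and DKO libraries lay below both WT libraries, while KO replicate 3 lay between them. DKO averaged 51.6% of WT, a log2 difference of -0.92 ± 0.39 (SE) with a 95% interval from -1.81 to -0.03, an unadjusted p of 0.045 and a limma adjusted p of 0.352. The 2 WT libraries alone differed by 1.56-fold, and leaving out WT replicate 2 gave a difference of -0.60 and leaving out WT replicate 1 one of -1.24. The gene most like Ctnnd1 over the 9 libraries was Iqgap1, a scaffold of the cortical actin network, with Pearson's r = 0.992.

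Enah, the actin polymerase Mena, was spread widely within genotypes. It stood at 21.2 and 35.3 FPKM among WT libraries, 18.0, 13.6 and 25.6 among KO, 26.2 and 17.0 among KH and 18.8 and 19.7 among DKO. Only DKO lay wholly below WT, at 68.0% of its mean and with a difference of -0.49 ± 0.35 (SE, log2 scale, limma adjusted p = 0.547). Without WT replicate 2 that difference was -0.14, and without WT replicate 1 it was -0.84.

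Arhgef11, a guanine nucleotide exchange factor that acts on the actin cytoskeleton, was near WT in both KH libraries and in all KO libraries but replicate 2. It measured 7.64 and 7.94 FPKM for WT, 7.77, 5.40 and 7.95 for KO, 7.95 and 7.61 for KH and 8.82 and 12.6 for DKO. Both DKO libraries lay above all 7 others, and KO replicate 2 lay below all of them. The DKO mean was 138% of WT and 1.52 times KO, and the difference from KO was 0.54 ± 0.23 (SE, log2 scale) with an unadjusted p of 0.0439 and a limma adjusted p of 0.703. Against WT it was 0.40 ± 0.25, with a 95% interval from -0.18 to 0.97 and an adjusted p of 0.504, and without DKO replicate 2 it was 0.16. KH averaged 99.9% of WT, with a 95% interval of the log2 difference from -0.57 to 0.57.

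Slk, a kinase that phosphorylates ezrin-type linkers of actin to the membrane, measured 26.5 and 30.2 FPKM in the WT pair, 19.0, 23.0 and 22.6 across the KO libraries, 17.5 and 33.0 with KH and 22.3 and 22.9 with DKO. KO and DKO lay below WT, and the 2 KH libraries were the lowest and the highest of all 9. DKO averaged 79.8% of WT, a difference of -0.31 ± 0.28 (SE, log2 scale, limma adjusted p = 0.633).

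Exoc7, the exocyst subunit that tethers secretory vesicles to the membrane, ran the other way. It measured 15.4 and 19.9 FPKM among WT libraries, 19.4, 25.9 and 19.5 among KO, 19.4 and 18.55 among KH and 27.1 and 21.8 among DKO. DKO lay above both WT libraries and the other genotypes overlapped them. DKO averaged 138% of WT, a difference of 0.45 ± 0.23 (SE, log2 scale, 95% interval -0.07 to 0.97, limma adjusted p = 0.415), which was 0.28 without WT replicate 1 and 0.30 without DKO replicate 1.

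Magi1, a scaffold of tight junctions, was the least abundant member and the most even. It measured 3.73 and 3.54 FPKM for WT, 3.99, 3.00 and 3.74 for KO, 3.52 and 3.69 for KH and 2.38 and 3.54 for DKO. Every genotype overlapped WT. KO and KH averaged 98.3% and 99.1% of WT, with 95% intervals of the log2 difference from -0.49 to 0.44 and from -0.52 to 0.50. DKO averaged 81.5%, a log2 difference of -0.24 (limma adjusted p = 0.645), which ran from -0.46 to -0.028 when single libraries were left out.

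Across the 10 genes the DKO and WT libraries did not overlap in 7, with 5 lower in DKO (Fgfr3, Cd44, Ctnnd1, Enah and Slk) and 2 higher (Arhgef11 and Exoc7), beside 26.4% and 27.8% of all genes tested. KO did not overlap WT in 4 members, 1 higher (12.6% of all genes) and 3 lower (12.1%), and KH in 4, 2 higher (15.3%) and 2 lower (16.6%).

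**Figure D4:**
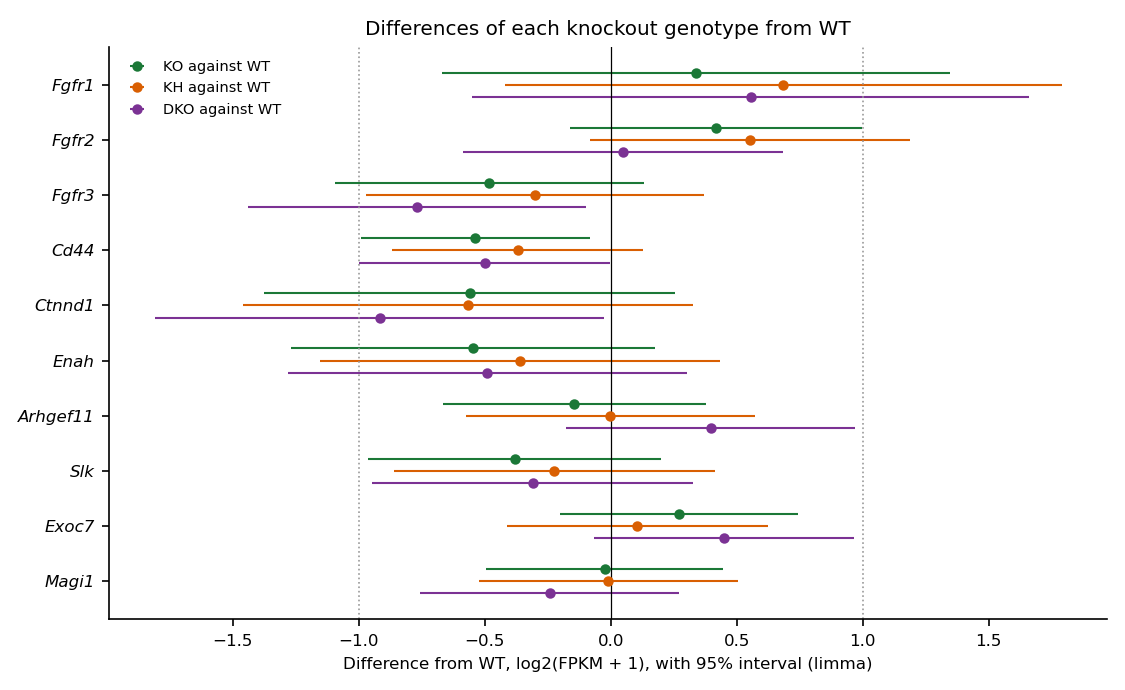
Differences of KO (green), KH (orange) and DKO (purple) from WT for the 10 genes, on the log2(FPKM + 1) scale, with 95% intervals from limma. Dotted lines mark a difference of 1 either way on this scale, which is more than 2-fold in FPKM. In each of these comparisons 6 of the 10 intervals lie between the dotted lines, and no gene has an adjusted p below 0.306.

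The moderated F test of limma for any difference among the 4 genotypes called 0 of 10 members, beside 0.491% of all genes, with adjusted p from 0.881 to 0.975 and 0 members at an unadjusted p below 0.05 (6.75% of all genes). A slope on the number of working Esrp alleles, which is 4 in WT, 2 in KO, 1 in KH and 0 in DKO, called 0 of 10 members, beside 0% of all genes, by limma. At an unadjusted p below 0.05 the slope held 2 members, Ctnnd1 and Fgfr3, both lower with fewer alleles, beside 8.33% of all genes in that direction. For Ctnnd1 the slope was 0.21 ± 0.09 (SE) on the log2 scale for each allele, with a limma adjusted p of 0.32, and for Fgfr3 it was 0.16 ± 0.07 with an adjusted p of 0.335. With array weights, which give less weight to libraries far from their group, the slope of Fgfr3 was called, together with 1577 genes in all.

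The genes whose pattern over the 9 libraries was most like each member were sought among 12196 genes averaging at least 1 FPKM. They were Frmd4a for Fgfr1 (Pearson's r = 0.99), Obsl1 for Fgfr2 (0.964), Hivep2 for Fgfr3 (0.979), 4931406P16Rik for Cd44 (0.968), Ubxn2a for Enah (0.978), Mnt for Arhgef11 (0.958), Blcap for Slk (0.944), Sergef for Exoc7 (0.955) and Hmgxb4 for Magi1 (0.964). These are the highest of many correlations over libraries that share genotype and scaling, and no member was the nearest gene of another.

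The pathway around the receptors was read from 26 genes for FGF ligands, helpers, adaptors and feedback regulators, of which 20 were tested. Between DKO and WT 1 of the 20 was called higher and 0 lower, beside 0.728% of all genes tested called either way, and the median log2 difference was 0.10 beside 0.02 over all genes. The called gene was Fgf1, a ligand that binds both receptor forms: it was at 0.683 and 0.624 FPKM in WT, at or below 1.23 in KO and KH, and at 5.04 and 3.55 in DKO. The ratio of average FPKM was 6.57. The difference on log2(FPKM + 1), a scale that understates changes of such low levels, was 1.67 ± 0.24 (SE, limma adjusted p = 0.0186). Both DKO libraries lay above all 7 others, and the call was lost when any 1 of the DKO or WT libraries was left out. It was also lost without the filter on low values, with only DKO and WT in the fit, with the replicate block, without the 3 libraries of lowest summed FPKM, and with a pseudocount of 0.1 in place of 1, under which Fgf22 was called instead. Fgf22, a ligand for the IIIb forms, went the other way, at 19.1 and 15.4 FPKM for WT, 6.89 to 17.8 for KO, 7.02 and 16.5 for KH and 2.56 and 1.06 for DKO. Its DKO libraries lay below all 7 others, with a difference of -2.74 ± 0.49 and an adjusted p of 0.0513, just outside the threshold. The mesenchymal ligands Fgf7 and Fgf10 and the receptor Fgfr4 did not reach 0.1 FPKM in any genotype average and were not tested.

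Downstream of the receptors no gene was called. The adaptor Gab1 averaged 11.5 FPKM in DKO and 23.2 in WT (difference -0.96 ± 0.23, limma adjusted p = 0.136), and the phosphatase Ptpn11 15.4 and 23.3 (adjusted p = 0.411). Etv4, a transcription factor induced by FGF signals, was at 5.21 and 3.87 FPKM in WT and 9.52 and 25.7 in DKO (difference 1.61 ± 0.55, adjusted p = 0.26). Dusp6, a feedback phosphatase of the pathway, was at 9.57 and 9.08 FPKM in WT and 11.8 and 21.9 in DKO (adjusted p = 0.48). For Etv4 and Dusp6 the higher DKO library was again replicate 2, and Dusp6 was also near 20 FPKM in KO replicate 1 (20.3) and KH replicate 1 (21.8), the other libraries with high Fgfr1.

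Proteins that work with the remaining members (cadherins and catenins, Mena's relatives, ezrin-type linkers, hyaluronan enzymes, guanine nucleotide exchange factors, MAGI proteins and the exocyst) formed a list of 32 genes, of which 30 were tested. Between DKO and WT 0 were called (0.728% of all genes), with 1 higher and 2 lower at an unadjusted p below 0.05 (13.8% of all genes either way), and a median log2 difference of -0.13 beside 0.02 over all genes. On the log2(FPKM + 1) scale the lowest differences were those of Stk10, the kinase closest to Slk (10.4 FPKM in WT and 4.12 in DKO, adjusted p = 0.42), of ezrin itself (Ezr, 165 and 88.0 FPKM, adjusted p = 0.304) and of plakoglobin (Jup, 552 and 332 FPKM, adjusted p = 0.446). The highest were P-cadherin (Cdh3, 14.0 and 26.2 FPKM, adjusted p = 0.418), Arhgef1 (19.7 and 33.0 FPKM, adjusted p = 0.312) and profilin (Pfn1, 263 and 352 FPKM, adjusted p = 0.524). All these p are limma's over all genes. Cdh3 also set the 3 libraries with high Fgfr1 apart, with 18.1 FPKM in DKO replicate 1 and 34.2 in DKO replicate 2. Stk10 was lower in the same 3 than in any other library, with 5.79 FPKM in DKO replicate 1 and 2.44 in DKO replicate 2.

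A further 29 genes are other splicing targets that the study tested by RT-PCR, chosen for splicing and partly from these samples. All were tested and 0 were called between DKO and WT (0.728% of all genes), with 1 higher and 3 lower at an unadjusted p below 0.05 (13.8% of all genes either way), and a median log2 difference of -0.19 beside 0.02 over all genes. Grhl1, a grainyhead-like transcription factor of the epidermis, lay lowest, at 132 and 118 FPKM in WT and 43.0 and 41.6 in DKO (difference -1.54 ± 0.37, limma adjusted p = 0.136). The paper reports less Grhl1 transcript in DKO by real-time RT-PCR as well. It relates this fall to skipping of an exon, after which the transcript is predicted to be degraded. 2810405K02Rik averaged 249 FPKM in WT and 132 in DKO (adjusted p = 0.35), and the motor protein gene Myo6 22.9 and 11.5 (adjusted p = 0.415). Both were lower in KO replicate 1, KH replicate 1 and DKO replicate 2 than in any other library. In DKO replicates 1 and 2, 2810405K02Rik was at 176.5 and 88.25 FPKM and Myo6 at 13.2 and 9.89. Highest were Timm17b, of the mitochondrial import machinery, at 32.5 and 65.7 FPKM (adjusted p = 0.26), the Wnt effector Lef1 at 9.16 and 14.2 (adjusted p = 0.595) and the integrin gene Itga6 at 40.5 and 58.9 (adjusted p = 0.558). Timm17b was uneven between the DKO libraries, at 84.0 FPKM in replicate 1 and 47.3 in replicate 2. Lef1 and Itga6 were each higher in KO replicate 1, KH replicate 1 and DKO replicate 2 than in any other library: in DKO replicate 1 Lef1 was at 11.2 FPKM and Itga6 at 45.2, against 17.2 and 72.7 in replicate 2.

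**Figure D5:**
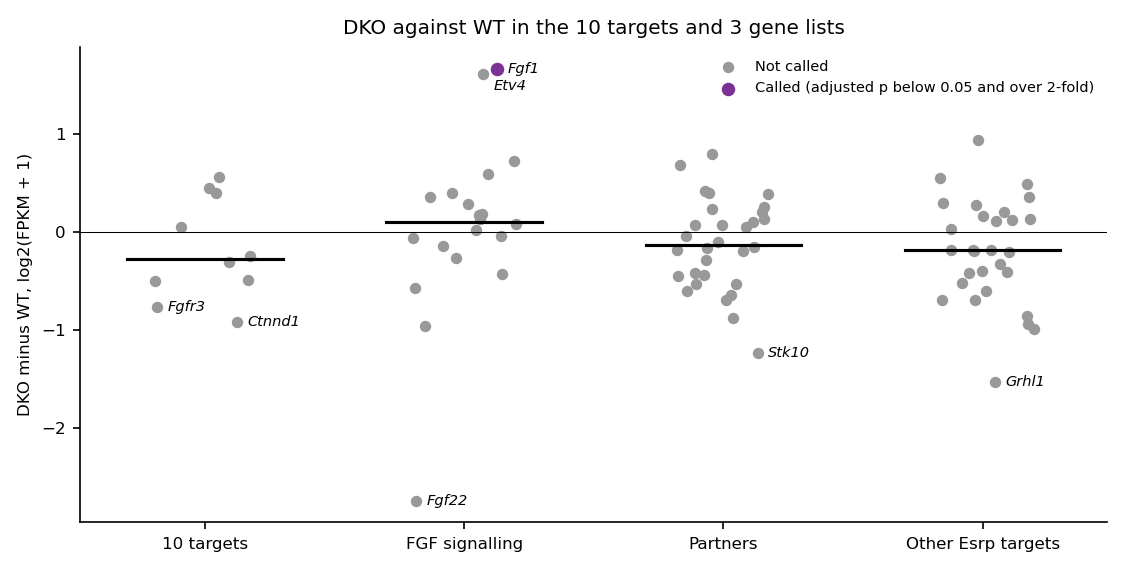
Differences between DKO and WT on the log2(FPKM + 1) scale for the 10 targets and 3 gene lists, 1 point a tested gene, with the list median as a black line. Fgf1 is the only gene called in these lists at the settings plotted, a call that did not hold when a DKO or WT library was left out, and all 10 targets lie between -0.92 and 0.55.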

How the data were processed

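RNA-seq of E18.5 epidermis from WT (n = 2), KO (n = 3), KH (n = 2) and DKO (n = 2) embryos was analysed from the deposited FPKM values, which the authors made with TopHat v1.4.1 (mm10, Ensembl annotation) and Cuffdiff v2.2.0; how libraries were scaled is not given in the sources used here. Columns of authors' means were not used. Genes averaging above 0.1 FPKM in at least 1 genotype were tested on log2(FPKM + 1), which understates changes of low genes, with limma 3.58.1 (R 4.3.3), 4 genotype means, an intensity trend and Benjamini-Hochberg adjustment; FPKM carries no counts, so no counting error is given. The fit was tested on simulated data. Each library came from the skin of a single embryo, per the study's methods. Genes were named as members, targeted genes, the nearest gene to each member, and per list every called gene and the 3 highest and 3 lowest DKO differences at 1 FPKM or more; follicle genes were named after their values were seen. Members and lists were chosen with earlier results of these data known. Calls and the members' differences from WT were recomputed under up to 20 other settings, single libraries left out among them, and the receptor shares with libraries left out. Exons came from GENCODE M21; tables and plots were made in Python 3.11.15 (matplotlib 3.10.9, numpy 2.4.6, pandas 2.3.3). Exon sequences of some members are not reported here.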

Additional observations from a re-analysis of the deposited data

How the results depend on the processing

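The members were called in 0 comparisons under each other setting run (20 for a pair of genotypes), except that array weights called 1 of them (Fgfr3) on the number of working alleles. Leaving out together the 3 libraries with the lowest summed FPKM, an alternative chosen after seeing the data, called 0 members. FGF genes called between DKO and WT went from 1 to 0 without the low filter, with only the 2 genotypes compared, with the replicate block and without those 3 libraries, to 2 (Fgf1 and Fgf22) with a filter at 1 FPKM, TPM or median ratio scaling, and to 3 (with Gab1) under array weights, and they ranged from 0 to 2 when single libraries were left out; with a pseudocount of 0.1 the count stayed at 1 but the gene was Fgf22 in place of Fgf1. Of the other splicing targets 1, Grhl1, was called after rescaling to TPM and under array weights. The cause was not tested.

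Some differences changed sign under some settings, with none called, and not all of these were near 0. At the main setting Fgfr1 in KO was at 0.34, Fgfr3 in KH at -0.30 and Slk in KH at -0.22. Against WT, rescaling to TPM gave -0.022 for Fgfr2 in DKO and 0.11 and 0.086 for Arhgef11 and Magi1 in KH, median ratio scaling gave 0.045 and 0.031 for the latter pair, and quantile normalization 0.029 for Arhgef11. Without the 3 libraries the values were -0.13 for Fgfr2 in DKO, -0.025 for Fgfr1 in KO, and 0.028, 0.21 and 0.017 for Fgfr3, Slk and Magi1 in KH. Leaving out single libraries moved Fgfr2 in DKO from -0.13 to 0.22. In KO it moved Fgfr1 from -0.025 to 0.55, Arhgef11 from -0.23 to 0.012 and Magi1 from -0.091 to 0.069. In KH it moved Fgfr3 from -0.63 to 0.028, Slk from -0.66 to 0.21, Exoc7 from -0.069 to 0.28, Arhgef11 from -0.029 to 0.027 and Magi1 from -0.039 to 0.019.

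Calls over all genes between DKO and WT ran from 41 without the filter to 556 with array weights around the 123 of the main setting; leaving out WT replicate 1, WT replicate 2 or DKO replicate 1 left 65, 54 and 75. When single libraries were left out the count ran from 0 (KO replicate 2 or 3) to 17 (WT replicate 2) between KO and WT and from 1 (KO replicate 2 or 3) to 33 (KH replicate 1) between KH and WT, around 5 in each, from 62 to 130 between DKO and KO around 108, from 43 to 102 between DKO and KH around 72, and from 0 to 21 (KH replicate 1) between KH and KO around 0. Whether replicate numbers pair the samples could not be settled. Deviations of same-numbered libraries from their genotype mean correlated from -0.599 to 0.49, but in a genotype of 2 libraries these deviations mirror each other. The numbers are those of the sample titles, and the authors' own library names number some libraries otherwise. With the replicate block 67 calls were left between DKO and WT, and 0 members. Each genotype had 2 or 3 libraries, which limits every p given.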
